A study of Mus musculus with 2 samples.

Results

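The genes that write, copy and remove DNA methylation were followed through 1 Setd2 KO and 1 Setd2 wild-type library of mouse embryonic stem cells. The 10 genes were the rows of the deposited table that carry the symbols Dnmt1, Dnmt3a, Dnmt3b, Dnmt3l, Uhrf1, Tet1, Tet2, Tet3, Tdg and Trim28, out of 17817 gene symbols in all. The rule matches rows by symbol, and all 10 were present once and passed the floor of a mean of 1 CPM (read equivalents per 1000000 over all gene rows) over both libraries. The Setd2 KO cells lacked Setd2 by their genotype label, and the Setd2 wild-type cells had an intact gene by theirs. Both lines had the mixed 129SV/C57BL/6 background, were at passages 10 to 12 and received no treatment. Feeder cells were depleted by a gelatin step of 0.5 h and 1 passage on gelatin, and the cells were collected 2 days later. With 1 library of each genotype, every difference describes these 2 libraries, and no p-value was computed. The sources used here do not say which part of Setd2 was deleted or whether each line is 1 clone.

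In mammals, DNA methylation sits mostly on the cytosine of CpG dinucleotides. Dnmt3a and Dnmt3b place it on unmethylated DNA, Dnmt3l assists them without catalytic activity of its own, and Dnmt1, brought to newly replicated DNA by Uhrf1, copies it onto the daughter strand. Tet1, Tet2 and Tet3 oxidise the methyl group, and Tdg excises the oxidised bases so that base excision repair can restore plain cytosine. Trim28, a corepressor recruited by zinc finger proteins, keeps retroelements and imprinted loci silent and methylated. Setd2 makes the trimethyl mark on lysine 36 of histone H3 over transcribed genes, and the PWWP domains of Dnmt3a and Dnmt3b bind methylated lysine 36.

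The rows for the 2 members with the lowest folds did not cover their whole genes. The Dnmt3a row (gene number 13435, chromosome 12, 3891744 to 3914443, plus strand, mm9) began at the same base as the annotated transcript Dnmt3a-201. That is the start of the short form known as Dnmt3a2, the main form in embryonic stem cells, and the long form starts 84584 and 84764 bases further upstream at the other RefSeq starts. Exons downstream of the internal start belong to both forms, so the row is a total that cannot separate them, and it spanned 9628 of the 16642 annotated exon bases. The Tet1 row (gene number 52463, chromosome 10, 62274443 to 62342762, minus strand, mm9) spanned 7291 of 14710 exon bases, and the RefSeq start of Tet1 lies 7310 bases upstream of it.

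The 250 bases before a RefSeq start are shown for these 2 genes, the lowest of the set, and for Dnmt3b, the highest, 5′ to 3′ with every CpG in capitals. They come from the RefSeq promoter table (GRCm38.p6) and were placed on NCBIM37, the assembly of mm9, by an exact and single match of each whole entry. The windows are Dnmt3a (short form, chr12:3891494-3891743, plus strand), Tet1 (chr10:62350073-62350322, minus strand) and Dnmt3b (chr2:153474935-153475184, plus strand).
Dnmt3a short form: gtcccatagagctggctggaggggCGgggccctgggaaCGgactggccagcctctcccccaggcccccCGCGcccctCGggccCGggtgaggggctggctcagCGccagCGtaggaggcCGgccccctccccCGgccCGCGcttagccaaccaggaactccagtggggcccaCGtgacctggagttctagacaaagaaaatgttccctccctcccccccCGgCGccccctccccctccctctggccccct
Tet1: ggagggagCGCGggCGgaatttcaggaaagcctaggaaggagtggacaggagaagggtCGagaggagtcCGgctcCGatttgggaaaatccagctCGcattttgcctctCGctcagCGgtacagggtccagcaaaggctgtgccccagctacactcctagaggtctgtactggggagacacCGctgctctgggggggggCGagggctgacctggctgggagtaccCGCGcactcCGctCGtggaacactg
Dnmt3b: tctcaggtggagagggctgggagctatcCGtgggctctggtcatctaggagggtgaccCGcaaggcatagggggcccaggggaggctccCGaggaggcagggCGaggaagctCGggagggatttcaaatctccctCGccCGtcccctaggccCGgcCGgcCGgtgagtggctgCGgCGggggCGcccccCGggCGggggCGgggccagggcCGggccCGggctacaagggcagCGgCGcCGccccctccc
Dnmt3a (short form) and Tet1 held 15 CpGs each and Dnmt3b 21, against a median of 6 in the 32851 windows of the RefSeq table. At least 15 CpGs stood in 27.3% of those windows, and at least 21 in 16.3%. The long-form starts of Dnmt3a were richer, with 38 and 40 CpGs. Tet2 held the most of the members with 51, reached by 0.067% of windows, and the 3 starts of Dnmt3l held 5, 4 and 3. The GC box GGGCGG, searched on both strands, occurred once each before Dnmt3a (short form) and Tet1 and 3 times before Dnmt3b, and in 32.7% of all windows. The E box CACGTG, which reads the same on both strands, occurred once before the short form of Dnmt3a and in 6.02% of all windows. Such matches describe the letters and not a site in use.

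Over all gene rows, read equivalents came to 52041677 in the Setd2 KO library and to 56129838 in the Setd2 wild-type library, so 1 CPM stood for 52.04 and 56.13 of them. A read equivalent is 76 sequenced bases over a gene. Folds are log2((KO + 0.5)/(wild type + 0.5)) on CPM, and the intervals beside ratios are exact 95% binomial ones that cover counting error only. Setd2 itself was at 174 CPM in the Setd2 KO library, against 452 CPM in the Setd2 wild-type library, 38.5% (37.6 to 39.4%). All 9 stem cell markers were detected in both libraries, at unequal levels. Pou5f1 was at 544 CPM in Setd2 KO and 558 CPM in Setd2 wild type, with 45% of its windows shared with other places in the genome, and Sox2 at 417 and 458 CPM in the same order. Of the other markers, Nanog (0.49) and Dppa5a (0.35) had log2 folds above 0. Zfp42 (-2.05), Utf1 (-0.77), Sall4 (-0.48), Esrrb (-0.37) and Tdgf1 (-0.30) had folds below 0, and the part of these differences in the folds of the members was not tested. Among 13523 genes over the floor the median log2 fold was 0.05, with quartiles of -0.20 and 0.28.

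The Tet genes and Dnmt3a were lower in the Setd2 KO library, while the maintenance pair Dnmt1 and Uhrf1, Trim28 and Dnmt3b were level or slightly higher. At 2-fold, 0 of 10 members differed, against 3.87% of all compared genes, of which 2.11% were lower and 1.76% higher. At 1.5-fold in either direction 2 of 10 differed, against 14.2%. Of the 10, 2 were lower, Dnmt3a and Tet1, against 6.77% of all compared genes, and 0 of 10 were higher, against 7.42%. Of the 10, 7 had a log2 fold below 0 and 3 above 0, against 43.6% and 56.4% of all compared genes. Their median was -0.12, and their folds ran from -0.94 for Dnmt3a to 0.23 for Dnmt3b.

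**Figure D1:**
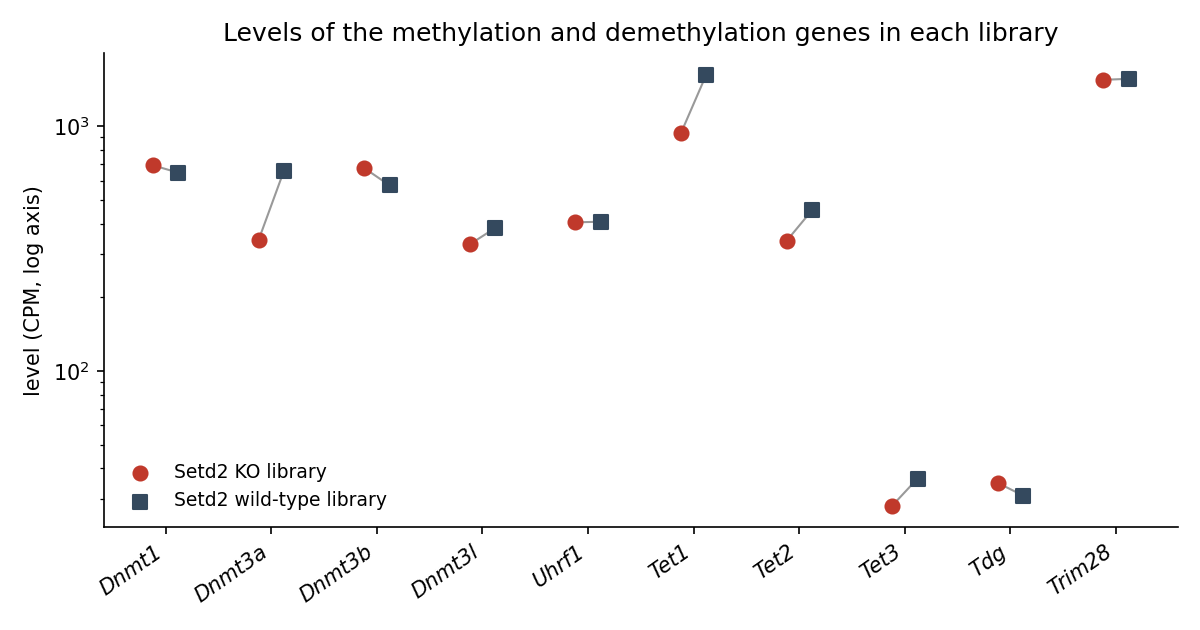
Level of each member in CPM on a log axis, as 1 red circle for the Setd2 KO library and 1 dark square for the Setd2 wild-type library, joined by a line. The steepest lines belong to Dnmt3a and Tet1, while Tet3 and Tdg lie far below the rest in both libraries, under 40 CPM; no error is drawn, since each genotype has 1 library.

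The de novo enzymes parted from each other. Dnmt3a had 17833 read equivalents in the Setd2 KO library and 36910 in the Setd2 wild-type library, which is 343 CPM against 658 CPM. It stood at 52.1% of the Setd2 wild-type level (95% counting interval 51.2 to 53.1%), a log2 fold of -0.94. Only 2.42% of the compared genes had a lower fold, and of the 2553 genes at 100 CPM or more, 30 did. Dnmt3b, the second de novo enzyme and the one most tied to the embryo, had 35106 read equivalents in Setd2 KO and 32184 in Setd2 wild type, or 675 CPM against 573 CPM. It was 1.18-fold higher in Setd2 KO (interval 1.16 to 1.19), and 29.5% of the compared genes had a higher fold. A share of 10% of its 76-base windows also matched the neighbouring annotated pseudogene Gm14490, where the table has no row. Dnmt3l, the regulatory partner of both, was at 329 CPM in Setd2 KO and 384 CPM in Setd2 wild type, or 85.8% (84.1 to 87.5%). In the Setd2 KO library Dnmt3a was thus the lower of the de novo pair, at 343 CPM beside 675 CPM for Dnmt3b. These totals are not adjusted for gene length, and in Setd2 wild type they had the other order. Per kb of the transcript nearest to each row, Dnmt3a lay below Dnmt3b in both libraries. The ratio was 0.387 in Setd2 KO and 0.873 in Setd2 wild type.

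**Figure D2:**
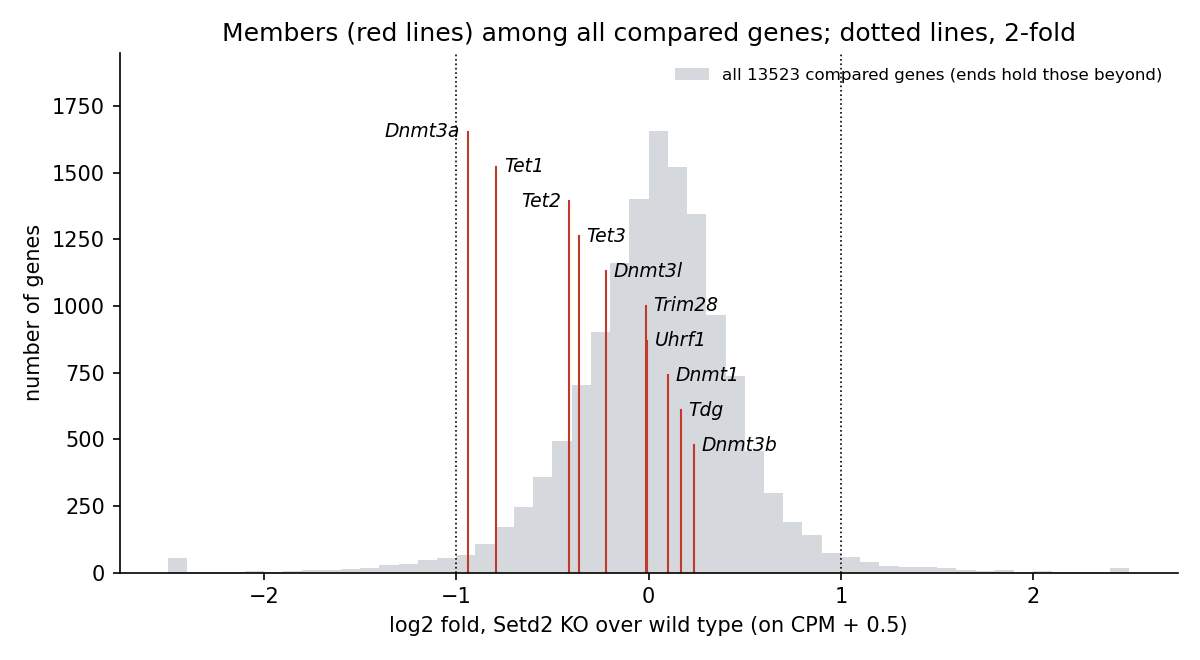
Histogram of the log2 fold (Setd2 KO over Setd2 wild type, on CPM + 0.5) over the 13523 compared genes, with a red line for each member; line heights only separate the names, and dotted lines mark 2-fold. Dnmt3a (-0.94) and Tet1 (-0.79) lie in the left tail, Tet2 and Tet3 near its shoulder, and the other 6 within the bulk.

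Maintenance genes were close in level. Dnmt1 had 36012 read equivalents in Setd2 KO and 36248 in Setd2 wild type, or 692 CPM against 646 CPM, 1.07-fold higher in Setd2 KO (interval 1.06 to 1.09). Uhrf1, which reads half-methylated CpGs after replication, was at 405 CPM in Setd2 KO and 407 CPM in Setd2 wild type, 0.994-fold (0.976 to 1.01). An interval that holds 1 says that counting noise alone spans a difference of this size, not that the genes are equal in such cells.

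Uhrf1 and Tdg each have processed copies in the genome, so their levels are uncertain. Of 200 windows of 76 bases from Uhrf1 exons, 60.5% matched another place with at most 2 mismatches. For 113 of them that place was the X-linked copy Gm5648. The row of Gm5648 held 172 CPM in Setd2 KO and 181 CPM in Setd2 wild type. A place on chromosome 16 matched 14 windows, some of them among those 113. Gm15953 is annotated there, and the row 4930455C21Rik overlaps the place. With both whole rows added, Uhrf1 came to 601 CPM against 617 CPM, a ratio of 0.975 (0.961 to 0.991). The 4930455C21Rik row carries another gene's name, so this sum may hold reads from outside Uhrf1 and its copies. The sources used here do not say how reads that match several places were assigned.

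All 3 Tet genes were lower in the Setd2 KO library. Tet1, the chief Tet enzyme of embryonic stem cells, had 48801 read equivalents in Setd2 KO and 91220 in Setd2 wild type, or 938 CPM against 1625 CPM. That is 57.7% (57.1 to 58.3%) of the Setd2 wild-type level, a log2 fold of -0.79, with 3.45% of the compared genes lower and 47 of the 2553 genes at 100 CPM or more. Tet2, also active in stem cells, was at 340.1 CPM in Setd2 KO and 453 CPM in Setd2 wild type, 75.03% (73.6 to 76.5%). Tet3, best known from the oocyte and zygote, was far less abundant, at 28.2 CPM in Setd2 KO and 36.4 CPM in Setd2 wild type, 77.4% (72.4 to 82.8%). For Tet2, 12.1% of compared genes had a lower fold, and for Tet3 14.4%, so both stood nearer the bulk than Tet1. Per kb of annotated exon, the 3 Tet genes summed to 103 CPM per kb in Setd2 KO and 163 CPM per kb in Setd2 wild type, 63.3%. With lengths taken from the transcript nearest to each row the same sum was 60.6%, at 193 and 318 CPM per kb in the same order. Tet1 held 61.7% of the exon-based sum in Setd2 KO and 67.8% in Setd2 wild type. That sum uses exon bases of Tet1 outside its row, which lowers this share. With nearest-transcript lengths the Tet1 share was 79.5% in Setd2 KO and 83.4% in Setd2 wild type.

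Tdg, the glycosylase downstream of the Tet enzymes, was at 34.9 CPM in Setd2 KO and 31.0 CPM in Setd2 wild type, 1.13-fold (1.05 to 1.204). All of its windows, 100%, had another place in the genome, so this row says little of the gene's true level. Its copies Gm9855 (110 CPM in Setd2 KO and 101 CPM in Setd2 wild type) and Gm5597 (13.6 and 13.5 CPM in the same order) have rows of their own. With them Tdg came to 159 CPM against 146 CPM, a ratio of 1.09 (1.06 to 1.123). Its windows also matched chromosome 15 (Gm5806, 177 windows) and chromosome 19 (140 windows), where no row exists, so the sum leaves these places out. Trim28 was among the most abundant genes of both libraries, at 1546 CPM in Setd2 KO and 1562 CPM in Setd2 wild type, a ratio of 0.990 (0.981 to 0.9998). None of its windows was shared, a count of 0.

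Levels of different genes can be compared only per length, and the order depended on which length was used for Dnmt3a and Tet1. The scale over all annotated exons includes bases that their rows did not span. The rows spanned 9628 of 16642 such bases for Dnmt3a and 7291 of 14710 for Tet1, which lowers both on that scale. Over all annotated exons, the Setd2 KO library held 382 CPM per kb of Trim28, 132 of Dnmt3b, 131 of Dnmt1, 110 of Dnmt3l and 95.05 of Uhrf1. Tet1 followed at 63.7 CPM per kb, Tet2 at 37.0, Dnmt3a at 20.6, Tdg at 6.50 and Tet3 at 2.54. The exact 95% Poisson intervals of Dnmt3b and Dnmt1 overlapped there, and no spread over replicates exists. In the Setd2 wild-type library the same scale gave 386 CPM per kb for Trim28, 128 for Dnmt3l, 123 for Dnmt1, 112 for Dnmt3b, 110 for Tet1 and 95.6 for Uhrf1. Tet2 was then at 49.2 CPM per kb, Dnmt3a at 39.5, Tdg at 5.77 and Tet3 at 3.28. On this scale Tet1 thus stood beside Dnmt3b in Setd2 wild type and below Uhrf1 in Setd2 KO. With the length of the transcript nearest to the row, a setting added after the data were seen, Dnmt3a was at 63.2 CPM per kb in Setd2 KO and 121 CPM per kb in Setd2 wild type. On that scale Tet1 was at 153 CPM per kb in Setd2 KO, below Dnmt3l (181) and Dnmt3b (163). In Setd2 wild type it was at 266 CPM per kb, second only to Trim28 (481). There Tet1 lay above Uhrf1 (113) in Setd2 KO and above Dnmt3b (139) in Setd2 wild type, so its place on the exon scale did not hold. On the exon scale, Trim28 lay above 99.4% of genes with a length in Setd2 KO and Tet3 above 27.0%.

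Ratios between members within a library do not depend on how the libraries are scaled. The Dnmt3a to Dnmt3b ratio per exon length was 0.156 in Setd2 KO and 0.352 in Setd2 wild type, so it stood at 44.3% of its Setd2 wild-type value (interval 43.3 to 45.3%). With the length of the nearest transcripts the ratio was 0.387 in Setd2 KO and 0.873 in Setd2 wild type, while its change does not use a length. Dnmt3a to Dnmt1 was at 48.6% (47.5 to 49.8%) and Dnmt3l to Dnmt3b at 72.9% (71.1 to 74.8%). Dnmt3l to Dnmt3a was 1.65-fold higher in Setd2 KO (1.603 to 1.69). Tet1 to Tet2 stood at 76.9% (75.2 to 78.6%), whereas Tet3 to Tet2 was at 103% (96.2 to 111%), a difference within counting error. Uhrf1 to Dnmt1 was at 92.8% (90.6 to 95.003%). Tet1 to Tdg was at 51.2% (47.9 to 54.8%), with the uncertainty of Tdg given above. With Dnmt3b higher and Dnmt3a lower in Setd2 KO, the summed level of both per exon length was 153 CPM per kb in Setd2 KO and 152 CPM per kb in Setd2 wild type, or 101%. With nearest-transcript lengths, which give Dnmt3a more weight, the sum was 227 against 260.1 CPM per kb, or 87.1%. The exon length of Dnmt3a includes bases outside its row, which lowers its weight in the 101% and its exon-based ratio to Dnmt3b.

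**Figure D3:**
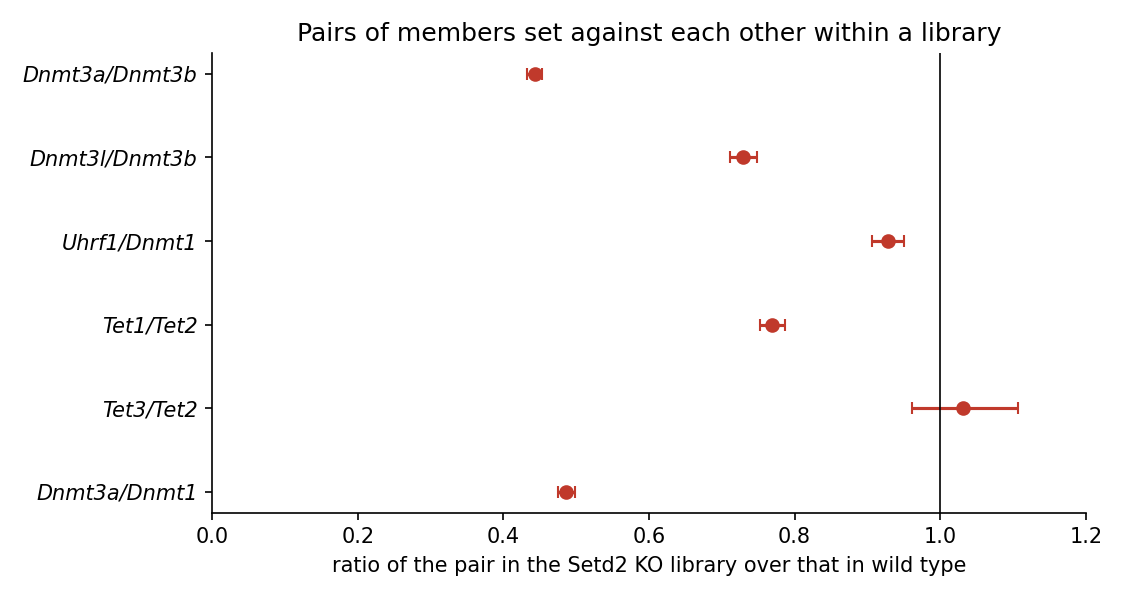
Ratio of a pair of members in the Setd2 KO library divided by the same ratio in the Setd2 wild-type library, as points with exact 95% counting intervals, for 6 of the 8 pairs; the vertical line marks an equal ratio. Both pairs led by Dnmt3a lie below 0.5, Tet1/Tet2 and Dnmt3l/Dnmt3b between 0.7 and 0.8, Uhrf1/Dnmt1 at 0.928, and the interval of Tet3/Tet2 crosses 1.

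The genes beside the low members differed from case to case. Of the 6 nearest compared genes around Dnmt3a, 3 on each side, 0 had a fold as low. Their folds ran from -0.48 for Rps7-ps2 to 0.33 for Asxl2, and the closest genes were Dtnb (0.11) and Efr3b (0.05). Around Tet1, 0 of 6 were as low, with a range from -0.46 for the nuclease gene Dna2 to 0.52 for Stox1. Around Tet2 (-0.41), 1 of 6 was lower, Nhedc2 at -0.42, and Bdh2 beside it was at -0.34. On that side the nearest compared gene was Cenpe at 0.62, which lies 1749 kb away, and the 3 genes on the other side ran from -0.07 to 0.27. Around Tet3 (-0.36), 5 of 6 had folds below 0, from Mthfd2 at -0.41 to Dguok at -0.10, with Mobkl1b at 0.01 and a median of -0.18. Around Dnmt3l, the neighbour Aire, which drives tissue antigen expression in the thymus, was at 6.09 CPM in Setd2 KO and 17.5 CPM in Setd2 wild type (-1.45), while the other 5 ran from -0.01 to 0.59. The members lie on chromosomes 2, 3, 6, 7, 9, 10, 12 and 17. None of them lies on chromosome 8, where the median log2 fold of 719 genes was -0.35. The medians of the 8 chromosomes that carry members ran from 0.002 to 0.12. Dnmt3l, Tet1 and Tdg share chromosome 10, with folds of -0.22, -0.79 and 0.17.

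**Figure D4:**
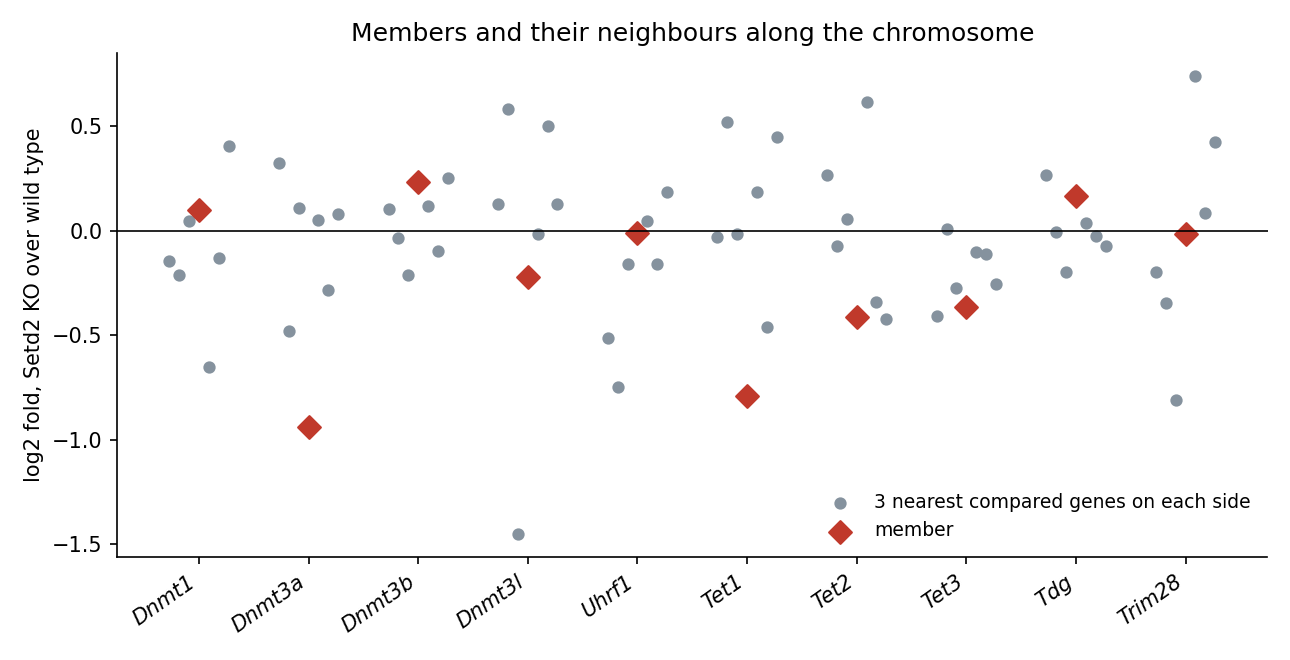
Log2 fold (Setd2 KO over Setd2 wild type) of each member as a red diamond, with its 3 nearest compared genes on each side as grey points in chromosome order. The diamonds of Dnmt3a and Tet1 lie below all 6 of their neighbours, while those of Uhrf1, Tdg and Trim28 lie among theirs.

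Around the enzymes, a list of methyl-CpG binding proteins and related genes was mostly a little lower in Setd2 KO, with some exceptions. Of its 10 genes with values, 1 was at least 1.5-fold lower and 1 higher. Among all compared genes, 6.77% were lower and 7.42% higher at 1.5-fold, shares that apply beside the lists that follow too. Of the 10, 7 lay below 0 and 3 above, and the median was -0.29, against 0.05 for all compared genes. Those below 0 include Cxxc1 (-0.35), Mbd3 (-0.32) and Mbd6 (-0.25), which are not established readers of methylated CpG. The zinc finger readers went apart, with Zbtb38 at 17.2 CPM in Setd2 KO and 27.8 CPM in Setd2 wild type and Zbtb33, also called Kaiso, at 70.6 and 44.1 CPM in the same order. Mbd4, a glycosylase that removes thymine from T:G mismatches at CpG sites, was at 56.2 CPM in Setd2 KO and 38.9 CPM in Setd2 wild type, 1.44-fold (1.37 to 1.53). Mbd2 had a log2 fold of 0.46. Base excision repair genes and deaminases had a median of -0.15 over 24 members, with 1 at least 1.5-fold lower and 0 higher. That one was Gadd45g, a stress-induced gene linked to active demethylation, at 1.10 CPM in Setd2 KO and 3.05 CPM in Setd2 wild type. The uracil glycosylase gene Ung had a log2 fold of -0.39, Mpg of -0.38 and Apobec3 of -0.42.

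Supply of the methyl donor and of 2-oxoglutarate, the cosubstrate of Tet enzymes, showed few large differences. Of 22 methyl donor and folate genes over the floor, 1 was at least 1.5-fold lower, 1 higher, 11 below 0 and 11 above 0, with a median of -0.03. The higher one was Ahcy, which breaks down the methylation inhibitor S-adenosylhomocysteine, at 29.5 CPM in Setd2 KO and 6.84 CPM in Setd2 wild type, 4.31-fold (3.85 to 4.83). A share of 75% of its windows matched other places, so its level is uncertain. Shmt2, the mitochondrial serine hydroxymethyltransferase gene, was at 59.4 CPM in Setd2 KO and 89.8 CPM in Setd2 wild type, with Mthfd2 at -0.41, Folr1 at -0.49 and Mat2a, which makes S-adenosylmethionine, at -0.36 with 60% of its windows shared. Of 15 genes listed for 2-oxoglutarate supply, 0 passed 1.5-fold and the median was 0.02. The list also holds genes of neighbouring reactions, such as Fh1, that neither make nor use 2-oxoglutarate. Among the wider folds there were those of D2hgdh (-0.57), Fh1 (0.45) and Idh2 (0.37), with 60% of the windows of D2hgdh shared.

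Partners and regulators of the enzymes had a median of -0.05 over 25 genes, with 2 at least 1.5-fold lower and 0 higher. The lower ones were the deacetylase gene Hdac1, at 19.6 CPM in Setd2 KO and 55.7 CPM in Setd2 wild type, and Pcna, the replication clamp that binds Dnmt1, at 126 and 193 CPM in the same order. A share of 85% of the windows of Hdac1 and 100% of those of Pcna matched other places. Ctcf, on chromosome 8, was at -0.49. The Dnmt1 deubiquitinase gene Usp7 was at 0.08, the Tet-binding transferase gene Ogt at 0.10, Prdm14, which represses de novo methyltransferase genes in naive cells, at 0.19 and Dppa3, which keeps Uhrf1 off DNA in oocytes, at 0.54 with 65% of its windows shared. Trim28 partners had a median of 0.06 over 22 genes, with 2 at least 1.5-fold lower and 2 higher. Zfp809, which directs Trim28 to retroviral sequences, was at 36.2 CPM in Setd2 KO and 61.6 CPM in Setd2 wild type. Zfp57, which guides Trim28 to imprinted loci, was at -0.47, and the H3K9 methyltransferase gene Setdb1 at -0.01. Pphln1 (0.75) and the remodeller gene Chd3 (0.66) were the higher ones.

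**Figure D5:**
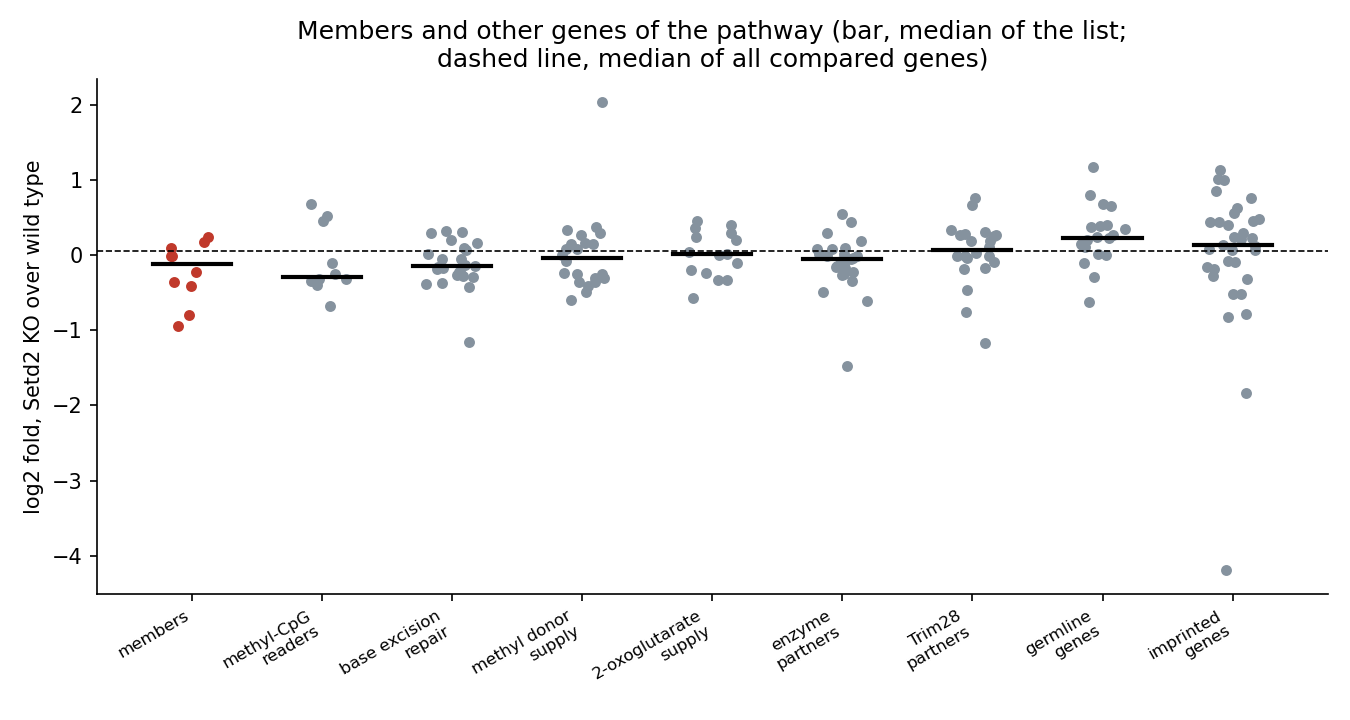
Log2 fold (Setd2 KO over Setd2 wild type) of the members, in red, and of 8 other lists of the pathway, in grey, for genes over the floor of 1 CPM; points are spread sideways for sight only, bars are list medians, and the dashed line is the median of all compared genes (0.05). List medians lie between -0.29 and 0.23, and single genes such as Meg3 (-4.19) and Ahcy (2.03) stand apart.

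Markers of other cell types also differed between the libraries, and their part in the folds of the members was not tested. In bulk RNA, fewer cells of a type and less RNA per cell cannot be told apart. At 1.5-fold, 6.77% of all compared genes were lower and 7.42% higher, which applies beside each list count below. Of 12 primitive endoderm markers over the floor, 8 were at least 1.5-fold lower and 0 higher, with a median of -1.19. Gata6, Sox7 and Amn passed the floor through the Setd2 wild-type library alone, so these counts and the median describe the genes that passed and not the whole list. The summed levels over all 16 in the table were 1652 CPM in Setd2 KO and 2057 CPM in Setd2 wild type. Most of each sum came from the laminin genes Lamc1, at 1040 and 1161 CPM in the same order, and Lamb1, at 405 and 390 CPM. Cubn was at 4.50 CPM in Setd2 KO and 60.9 CPM in Setd2 wild type, Gata6 at 0.953 and 6.00 CPM in the same order, and Afp was listed at 0 in both. Fibroblast markers, standing for feeder cells, had a median of -0.19 over 20 genes, with 4 at least 1.5-fold lower and 1 higher, and summed levels over 24 of 3473 CPM in Setd2 KO and 3270 CPM in Setd2 wild type, of which Fn1 made up 2957 and 2666 CPM in the same order. Lum was listed at 0 in Setd2 KO and at 4 read equivalents in Setd2 wild type. The mesenchymal factor gene Prrx1 had a log2 fold of -1.01 and Lox of -0.82, and the collagen gene Col1a2 was at 9.08 CPM in Setd2 KO and 14.4 CPM in Setd2 wild type. Naive and primed state genes had a median of -0.23 over 20, with 6 at least 1.5-fold lower and 2 higher, led by Zfp42 and Klf2 on chromosome 8 (-2.05, with 60% of windows shared, and -1.73) and by Cldn6 (1.68). Fgf5, 1 of the 2 higher, passed the floor through the Setd2 KO library alone. Of 8 H3K36 methyltransferase genes, 1 was at least 1.5-fold lower and 1 higher, with a list median of -0.21. The lower one was Setd2, the gene named in the genotype, and the higher one Setmar (0.76). Setd2 alone passed 2-fold, against 3.87% of all compared genes.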

How the data were processed

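Total RNA of the 2 cell lines was sequenced (Illumina GAIIx, per the design text). Per the submitters' processing notes, the mm9 build, TopHat 1.0.13 and CASAVA 1.6.0 are named, without their roles. The handling of strand and of reads with several matches is not stated. The header of the deposited table says RPKM, but its values behaved as log2(x + 1), with x the bases sequenced from a gene divided by 76. Among values of x above 0 and under 200, 85.7% (Setd2 KO) and 85.9% (Setd2 wild type) were whole multiples of 1 base in 76 within 0.05 of a base. From the deposited log2 values x was recovered, called read equivalents, and scaled to 1000000 over all 17827 rows (CPM). A symbol on several rows (10 symbols) took the row with the highest mean.

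Lengths, exons and positions came from GENCODE vM1 on NCBIM37, which held a gene model of the same symbol for 94.6% of symbols. Windows of 76 bases, 200 for each member and up to 20 for each other listed gene, were aligned with minimap2 2.31, and a window with another place at up to 2 mismatches counted as shared. Ratios between pairs carry exact conditional 95% intervals (scipy 1.17.1). The steps were tested on simulated data.

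The members and lists were chosen with earlier results of these data known. The text names every member, Setd2, up to 4 genes over the floor with the widest folds of each list, genes fixed as defining a list, stem cell markers, genomic neighbours and copies. Afp, Amn, Cxxc1, Ddx4, Fgf5, Fn1, Lamb1, Lamc1, Lum, Mbd3, Mbd6, Sox7, Stra8 and Tex15 fall outside this rule. They were chosen after their values were seen. Genes of a list without a row were not analysed here. Some genes that the rule names are not reported here. With 2 libraries a pattern is 1 ratio, so no genes of most similar pattern are named.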

Additional observations from a re-analysis of the deposited data

How the results depend on the processing

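No paired analysis was possible because each genotype has 1 library, which also leaves no library to omit. Settings chosen after seeing the data were the nearest-transcript lengths, the lists limited to genes with at most 50% of windows shared, and the members without Tdg and Uhrf1. Pseudocounts of 0.1 and 1 CPM, 4 other scalings and summed rows kept the sign of all 10 member folds in 70 recomputed values. Only the 4 scalings could have changed a sign. A pseudocount keeps the order of 2 values, and each member has 1 row. Of the 70 values, 27 moved by more than counting error. Dnmt3a ran from -0.9999 to -0.94 and Tet1 from -0.85 to -0.79, Dnmt1 from 0.04 to 0.10 and Dnmt3b from 0.17 to 0.23. The lowest Dnmt3a value, with the trimmed mean of log ratios, fell just short of 2-fold. Of 36 recomputed counts of members, the 1 that changed was the threshold of 1.5-fold, with 2 lower. Other floors, the 3-fold threshold and the omission of Tdg and Uhrf1 could not alter these counts. All members lay above 5 CPM, none passed 2-fold, and neither Tdg nor Uhrf1 passed 1.5-fold. Over all genes, 1004 were higher and 916 lower at 1.5-fold, 62 and 93 at 3-fold, and with a floor of 5 CPM 108 were higher, against 238 and 285 at 2-fold. Of 108 recomputed list medians, 102 moved by less than 0.1. Naive and primed state genes were at -0.34 with a floor of 5 CPM and -0.086 without chromosome 8. Primitive endoderm markers were at -1.025 with a floor of 5 CPM, -0.96 with none, -1.04 with a pseudocount of 1 CPM and -0.99 without chromosome 8. Another floor and the omission of chromosome 8 change which genes a list holds, and otherwise the cause was not tested. Depth limits Tet3 and Tdg most, with 1466 and 1817 read equivalents in Setd2 KO and 2042 and 1740 in Setd2 wild type.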

Other observations

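Genes that DNA methylation is known to silence in somatic cells or mark by parent were read from 2 lists. Germline genes, many of them silenced by promoter methylation in somatic cells, had a median log2 fold of 0.23 over 20 genes, with 17 above 0 and 3 below, beside 56.4% above 0 among all compared genes. Of these 20, 4 were at least 1.5-fold higher and 1 lower, against 7.42% and 6.77% of all compared genes. Mael, a piRNA pathway gene, was at 31.0 CPM in Setd2 KO and 13.5 CPM in Setd2 wild type, 2.30-fold (95% counting interval 2.11 to 2.51). Dazl, a germ cell RNA-binding protein gene, was at 19.3 CPM in Setd2 KO and 10.9 CPM in Setd2 wild type, with Brdt at 7.97 and 4.78 CPM and Taf7l at 7.26 and 4.44 CPM in the same order. Stra8, named after its value was seen, was the lower one (-0.62). Some listed genes were well expressed in both libraries. Tex15 was at 133 CPM in Setd2 KO and 116 CPM in Setd2 wild type, and Ddx4 at 53.2 and 52.9 CPM in the same order. Among genes with at most 50% of their windows shared, the list median was 0.24. DNA methylation was not measured at any gene of the list.

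Imprinted genes went both ways. Of 33 over the floor, 4 were at least 1.5-fold lower and 6 higher, against 6.77% and 7.42% of all compared genes. Their median was 0.13. Both of the widest lower folds lay at the Dlk1-Dio3 locus, where Meg3 was at 1.76 CPM in Setd2 KO and 40.8 CPM in Setd2 wild type and Rtl1 at 0.211 and 2.04 CPM in the same order. Rtl1 passed the floor through the Setd2 wild-type library alone. Impact was at 202 CPM in Setd2 KO and 91.8 CPM in Setd2 wild type, and the growth factor gene Igf2 at 14.6 and 6.97 CPM in the same order.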
